A study of Mus musculus with 106 samples.

Results

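Dopamine and cyclic AMP signalling in the striatum was followed through 9 genes: the dopamine receptors Drd1, Drd2 and Drd3, the adenosine receptor Adora2a, the orphan receptor Gpr6, the G protein subunit Gnal, the adenylyl cyclase Adcy5, the phosphatase regulator Ppp1r1b and the phosphatase Ptpn5. They were chosen by name, and all 9 were found in the count table, among 21897 protein-coding genes and 55401 mouse genes listed. Striatal projection neurons form a direct pathway, marked by Drd1, and an indirect pathway, marked by Drd2, Adora2a and Gpr6. In both, receptors act through the stimulatory subunit Golf (Gnal) or inhibitory G proteins on adenylyl cyclase 5 (Adcy5), and cyclic AMP activates protein kinase A. The kinase phosphorylates DARPP-32 (Ppp1r1b), which then inhibits protein phosphatase 1, and the striatal-enriched phosphatase STEP (Ptpn5). Huntington's disease (HD), caused by an expanded CAG repeat in the huntingtin gene, affects striatal projection neurons severely.

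The study used mice that carry a long CAG repeat knocked into the mouse huntingtin gene, Hdh, and compared them with wild-type controls. HD mice were heterozygous (Hdh Q7/Q200), controls carried Hdh Q7/Q7, and all were on a 129S4 background and about 9 months old according to the methods, which describe the Gad2, PV and vGluT2 lines. All of those mice also carried 1 copy of RiboTag, in which Cre recombinase switches on a hemagglutinin (HA) tag on the ribosomal protein Rpl22, and 1 copy of Cre. The driver was Gad2-IRES-Cre (GABAergic neurons), PV-IRES-Cre (parvalbumin neurons) or vGluT2-IRES-Cre (neurons that at some stage made the glutamate transporter Slc17a6), while the sources at hand do not state the driver or age of the SST (somatostatin) line. Each IP library holds RNA bound to tagged ribosomes, precipitated with an anti-HA antibody from a frozen cerebrum or cerebellum hemisphere, and each input library holds total RNA of such a homogenate, taken in a subset of mice. The cerebrum was taken whole, without the olfactory bulb, so the striatum was a part of each cerebral sample, and an IP can retain RNA of untagged cells.

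There were 67 IP and 39 input libraries, from 45 mice and in 24 groups. In the cerebrum there were 6 HD and 6 control libraries of Gad2 IP, 5 and 6 of PV IP, 4 and 5 of SST IP, and 6 and 6 of vGluT2 IP. In the cerebellum there were 6 and 6 of Gad2 IP, and 6 and 5 of vGluT2 IP. Cerebral inputs numbered 3 HD and 3 control in each of the Gad2, PV and vGluT2 lines, and 3 and 4 in the SST line. Cerebellar inputs numbered 3 and 3 in the Gad2 line, and 4 and 4 in the vGluT2 line. Total counts per library ran from 21905221 to 107753586, with a median of 35866726. Levels are given as CPM, a gene's count scaled to a common library size after trimmed mean normalisation over all libraries, and differences as log2 fold changes ± SE from fits over every gene with a mean count above 10. A gene is called at an adjusted p of 0.05 or less. Tests are quasi-likelihood tests in edgeR, adjusted over all genes tested by the Benjamini-Hochberg method, and this value is written as edgeR adjusted p. Of 36 mice with more than 1 library, 3 had libraries that differed in whether Y-linked genes were counted, and each pair involved a control cerebellar vGluT2 IP library (replicates 1, 3 and 4).

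On GRCm38, Drd1 (ENSMUSG00000021478) lies on the minus strand at chr13:54051183-54055705 and Drd2 (ENSMUSG00000032259) on the plus strand at chr9:49340627-49408177. Drd3 (ENSMUSG00000022705, chr16:43754026-43822932) shares chromosome 16 and the plus strand with Adcy5 (ENSMUSG00000022840, chr16:35154877-35305738). Gpr6 (ENSMUSG00000046922, minus strand, chr10:41069977-41072285) shares chromosome 10 with Adora2a (ENSMUSG00000020178, plus strand, chr10:75316877-75334784). Gnal (ENSMUSG00000024524) is on the plus strand at chr18:67088216-67226792, Ppp1r1b (ENSMUSG00000061718) on the plus strand at chr11:98348404-98357796 and Ptpn5 (ENSMUSG00000030854) on the minus strand at chr7:47077795-47133684. Their longest transcripts ranged from 46.0% G and C in Drd1 to 61.0% in Ppp1r1b, against a median of 48.7% over protein-coding genes. Gnal overlaps Mppe1 and Ppp1r1b overlaps 1700003D09Rik on the opposite strand. The libraries were made with a stranded kit, but the strand setting used in counting is not stated, so whether antisense reads entered the counts of these 2 genes was not tested.

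The cell types named by the drivers were visible in marker genes, compared between IP and input of the same line over both genotypes. All 3 GABAergic markers (Gad1, Gad2, Slc32a1) rose in the cerebral Gad2, PV and SST IPs, with median log2 fold changes of 2.053, 1.647 and 1.205, and all 3 were lower in the vGluT2 IP (−2.96). All 5 parvalbumin neuron markers rose in the PV IP (median 2.33), all 5 somatostatin neuron markers in the SST IP (2.10), and 4 of 5 glutamatergic markers in the vGluT2 IP (1.13). In the cerebellum all 5 Purkinje cell markers rose in the Gad2 IP (1.98) and all 5 granule cell markers in the vGluT2 IP (1.22). The 10 further markers of striatal projection neurons all rose in the cerebral Gad2 IP, with a median of 2.15. In the SST IP, 4 of these 10 rose and 2 fell, with a median of 0.22. In the PV IP, 2 rose and 5 fell (median −0.26), and in the vGluT2 IP 1 rose and 8 fell (median −1.33). Medians over all genes tested lay between −0.02 and 0.07 in these comparisons. The share of all genes called in either direction was 46% in the cerebral Gad2 IP, 71.6% in PV, 63.6% in SST and 53.5% in vGluT2, and 60.6% and 65.6% in the cerebellar Gad2 and vGluT2 IPs, so the mixed counts of the 10 in the PV and SST IPs are close to those of any genes. Markers of other cell types fell in the Gad2 IP: 6 of 6 for oligodendrocytes (median −2.57), 6 of 6 for astrocytes (−2.76), 5 of 5 for microglia (−1.07), 3 of 3 for endothelial cells (−2.78) and 2 of 3 for cholinergic neurons (−0.75). In the SST IP glial markers went both ways, with 2 oligodendrocyte markers higher and 4 lower (median −1.22), and with the astrocyte marker Slc1a2 higher and 4 others lower (−0.94).

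Every one of the 9 genes had its highest control mean in the cerebral Gad2 IP. For 7 of them this mean stood more than 1 SD clear of the next group, the exceptions being Drd3 and Gnal. Divided by the length of the longest transcript, the order within the control Gad2 IP was Ppp1r1b (1101 CPM per kb), Ptpn5 (119), Adora2a (112), Adcy5 (87.2), Gnal (85.4), Drd2 (58.97), Drd1 (40.1), Gpr6 (28.8) and Drd3 (0.465). In the control SST IP the per-kb order opened with Ptpn5 (58.9 CPM per kb), Ppp1r1b (58.3), Gnal (43.8) and Adcy5 (35.7), and went on with Drd2 (16.9), Adora2a (12.9), Drd1 (7.00), Gpr6 (3.21) and Drd3 (0.0618). In the control cerebellar Gad2 IP, Ppp1r1b again came first (212.7 CPM per kb), ahead of Gnal (60.5), Adcy5 (14.8) and Ptpn5 (11.4).

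Among the receptors, Drd1, the excitatory dopamine receptor of the direct pathway, averaged 143.5 ± 20.5 CPM (SD, n = 6) in the control Gad2 IP. The 4 cerebral inputs (20.6 to 26.3 CPM), the SST IP (25.0 ± 3.21, n = 5) and the PV IP (23.6 ± 3.48, n = 6) came next and overlapped within 1 SD. The vGluT2 IP held 13.6 ± 2.94 CPM, which overlapped the lowest input, and all cerebellar groups averaged 0.448 CPM or less. Drd2, the inhibitory receptor of the indirect pathway, averaged 150.2 ± 14.1 CPM in the Gad2 IP. It was followed by the inputs (47.4 to 60.9 CPM) and the SST IP (43.0 ± 7.67), which overlapped the lowest input, and then by the PV IP (26.6 ± 5.25) and the vGluT2 IP (10.1 ± 1.55), each clear of its neighbours. Drd3, a receptor best known from the nucleus accumbens and islands of Calleja, was near the limit of detection, with 0.795 ± 0.347 CPM in the Gad2 IP and at most 0.332 CPM elsewhere, and its neighbouring groups overlapped throughout.

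Gpr6, a constitutively active receptor coupled to stimulatory G proteins in indirect-pathway neurons, averaged 51.4 ± 5.17 CPM in the control Gad2 IP. The inputs overlapped one another between 11.7 and 15.0 CPM, and the SST IP (5.73 ± 0.608) stood clear of them and of the PV IP (3.66 ± 0.871). The PV IP overlapped the vGluT2 IP (2.61 ± 0.837), and cerebellar means were at most 0.103 CPM. Adora2a, the adenosine receptor that opposes Drd2 on the same neurons, had the same order of the 4 cerebral IPs. It averaged 291.2 ± 40.5 CPM in the Gad2 IP, 67.1 to 90.5 in the inputs, 33.5 ± 5.52 in the SST IP, 19.2 ± 5.43 in the PV IP and 5.56 ± 2.03 in the vGluT2 IP, and the 3 last were each separated by more than 1 SD.

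The intracellular members were spread over more cell types. Gnal averaged 489.8 ± 115 CPM in the cerebral Gad2 IP and 346.7 ± 37.8 in the cerebellar Gad2 IP, which overlapped. The PV IP (280.2 ± 6.47) and SST IP (251.0 ± 14.1) followed, both above the 4 cerebral inputs (164.2 to 205.5 CPM), although the SST IP overlapped the highest of these, and the vGluT2 IP (188.7 ± 22.1) lay among them. Adcy5, the main cyclase of striatal projection neurons, averaged 610.9 ± 95.6 CPM in the Gad2 IP, 278.9 to 324.1 in the inputs, 250.4 ± 26.6 in the SST IP and 214.9 ± 31.9 in the PV IP, and each of these overlapped the next from the inputs on. The vGluT2 IP (114.1 ± 13.2) overlapped the cerebellar Gad2 IP (104.0 ± 17.4), and the cerebellar vGluT2 IP was lowest (36.9 ± 7.34). Ppp1r1b ranged most among these 3, from 2202 ± 319 CPM in the cerebral Gad2 IP through 432.6 to 546.7 in the inputs and 425.7 ± 113 in the cerebellar Gad2 IP. The cerebellar inputs followed (214.9 and 182.9 CPM). Its vGluT2 IP (164.3 ± 28.3) overlapped the lower of them, and the vGluT2 IP and SST IP (116.7 ± 29.0) overlapped, as did the PV IP (67.2 ± 19.7) and the cerebellar vGluT2 IP (51.3 ± 5.71). Ptpn5 averaged 393.2 ± 35.2 CPM in the Gad2 IP and 222.3 to 275.4 in the inputs, and the SST IP (194.0 ± 21.9), which overlapped the lowest input, and the vGluT2 IP (191.0 ± 14.9) overlapped each other. The PV IP (150.6 ± 16.6) lay lower, and the cerebellar Gad2 IP (37.7 ± 5.36) was the highest of the cerebellar groups.

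**Figure D1:**
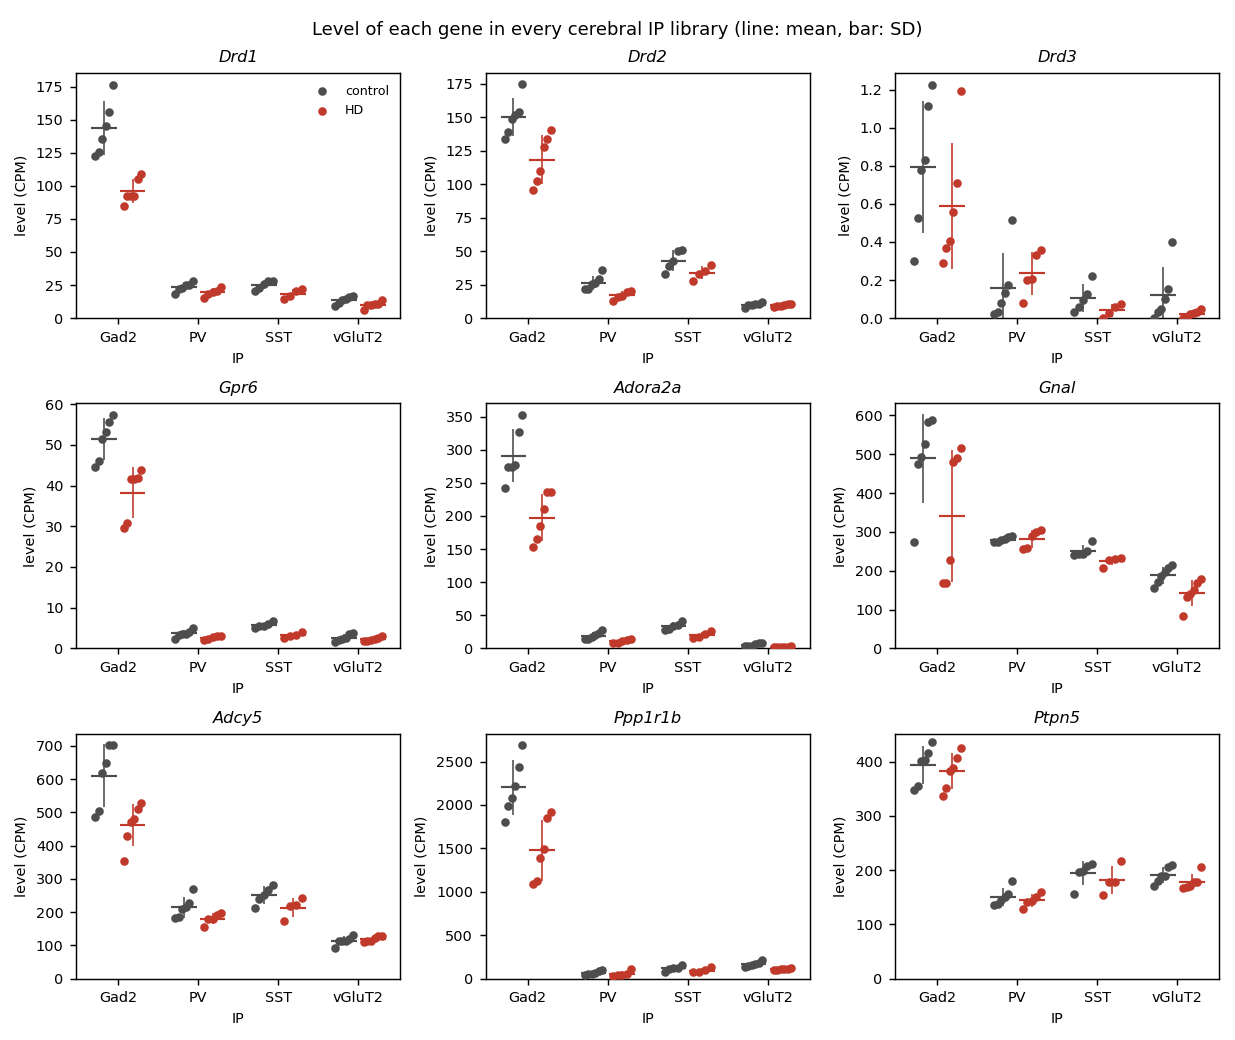
CPM of the 9 genes in each cerebral IP library, with HD and control libraries of the Gad2, PV, SST and vGluT2 lines side by side. Points are libraries, and the control mean of each gene is highest in the Gad2 IP, although single libraries of Gnal and Drd3 overlap those of other lines.

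The comparison of IP with input asks in which tagged cells each gene's message sits, relative to the whole cerebrum or cerebellum. In the cerebral Gad2 IP, where 46% of 14723 genes were called in either direction, receptors of both pathways and the intracellular genes rose above the Gad2 input. Drd1 rose by 2.39 ± 0.15 (edgeR adjusted p = 6.32e-10), Ppp1r1b by 2.29 ± 0.23 (1.13e-07), Adora2a by 2.12 ± 0.19, Gpr6 by 2.10 ± 0.19 and Drd2 by 1.69 ± 0.15. Drd3 (1.63 ± 0.41, edgeR adjusted p = 0.00287), with 10 to 56 counts in each IP and 3 to 15 in each input library, passed the filter on low counts only through the IP, so its call is no support. Smaller rises were those of Adcy5 (1.07 ± 0.14), Gnal (1.06 ± 0.26, edgeR adjusted p = 0.00222) and Ptpn5 (0.78 ± 0.14).

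In the SST IP, DARPP-32 and the receptors Gpr6 and Adora2a were lower than in the SST input while Gnal was higher. There 6 of 8 genes tested were called, against 63.6% of 14865 genes, with a median of −0.28. Ppp1r1b (−1.9997 ± 0.17, edgeR adjusted p = 3.17e-08), Gpr6 (−1.45 ± 0.14) and Adora2a (−1.23 ± 0.14) fell most, and Gnal rose by 0.53 ± 0.08 (edgeR adjusted p = 3.35e-05). Drd2 (−0.31 ± 0.12, edgeR adjusted p = 0.0287) and Ptpn5 (−0.25 ± 0.10, 0.0339) passed narrowly. Drd1 (0.01 ± 0.12) and Adcy5 (−0.22 ± 0.10, edgeR adjusted p = 0.0562) were not called. The small differences in the SST IP turned on single input libraries. Drd2 was not called without SST input control replicate 1 (−0.27, edgeR adjusted p = 0.0701), 2 (−0.30, 0.0587) or 3 (−0.25, 0.0938), or HD replicate 1 (−0.28, 0.0718) or 3 (−0.30, 0.0589). Ptpn5 was not called without control replicate 2 (−0.22, edgeR adjusted p = 0.0900) or 3 (−0.22, 0.0906), or HD replicate 1 (−0.20, 0.103) or 3 (−0.23, 0.0755). Adcy5 was called without control replicate 1 (−0.25, edgeR adjusted p = 0.0350) or 4 (−0.24, 0.0483). It was also called with mouse as a block, on mice with both preparations (−0.26, edgeR adjusted p = 0.0415), against all cerebral inputs (−0.17, 0.0363) and by DESeq2 (−0.21, DESeq2 adjusted p = 0.0409). With an index of library GC content as a covariate, Drd1 was called lower (−0.42, edgeR adjusted p = 0.0189) and Drd2 (0.13) and Ptpn5 (0.14) changed sign and were not called. In control libraries only, Drd2 (−0.36, edgeR adjusted p = 0.0880) and Ptpn5 (−0.22, 0.199) were not called either.

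The PV IP was low in all indirect-pathway genes and in DARPP-32. Of 8 genes tested 7 were called, against 71.6% of 14791 genes, with a median of −0.998. Ppp1r1b (−2.97 ± 0.23, edgeR adjusted p = 3.97e-09), Adora2a (−2.25 ± 0.17), Gpr6 (−2.04 ± 0.15), Drd2 (−1.33 ± 0.14), Ptpn5 (−0.67 ± 0.11) and Adcy5 (−0.48 ± 0.10) fell, and Gnal rose by 0.79 ± 0.10. Drd1 differed by −0.08 ± 0.15 (edgeR adjusted p = 0.664). With the GC index, Drd1 was called in the PV IP (−0.68, edgeR adjusted p = 8.85e-05), and Adcy5 (−0.21, 0.115) and Ptpn5 (−0.18, 0.0974) were not. The called values of Drd2 (−0.88) and Gnal (0.50) were smaller in that fit. In the vGluT2 IP, 7 of 8 genes fell, against 53.5% of 14729 genes called, with a median of −1.39. Adora2a fell by 4.02 ± 0.18 (edgeR adjusted p = 1.08e-12), Drd2 by 2.25 ± 0.12, Gpr6 by 2.25 ± 0.17, Ppp1r1b by 1.52 ± 0.12, Adcy5 by 1.25 ± 0.11 and Drd1 by 0.86 ± 0.17. Ptpn5 fell least (−0.34 ± 0.11, edgeR adjusted p = 0.0120) and was not called without control vGluT2 input replicate 1 (−0.22, 0.0934), and Gnal differed by −0.15 ± 0.14. With the GC index, Ptpn5 in the vGluT2 IP changed sign (0.0089, edgeR adjusted p = 0.921) and Gnal was called lower (−0.48, 0.00443).

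In the cerebellum the 4 intracellular genes were higher in the tagged GABAergic cells, and of the 5 receptors only Drd2 and Adora2a were counted well enough to be tested in them. In the cerebellar Gad2 IP 5 of 6 genes were called, against 60.6% of 14229 genes. Gnal rose by 1.24 ± 0.09 (edgeR adjusted p = 8.95e-10), Ptpn5 by 1.16 ± 0.13, Ppp1r1b by 0.96 ± 0.18 and Adcy5 by 0.66 ± 0.10, while Adora2a fell by 2.89 ± 0.33 and Drd2 differed by 0.19 ± 0.41. Outside the members, the dopamine receptors Drd4 (1.79 ± 0.30, edgeR adjusted p = 3.98e-05) and Drd5 (1.71 ± 0.17, 3.09e-08) rose. In the cerebellar vGluT2 IP 5 of 7 genes fell, against 65.6% of 14230 genes called. These were Adora2a (−3.10 ± 0.30), Ppp1r1b (−2.44 ± 0.15), Ptpn5 (−0.90 ± 0.23), Adcy5 (−0.77 ± 0.09) and Gnal (−0.67 ± 0.14), whereas Drd1 (0.36 ± 0.36) and Drd2 (−0.55 ± 0.70) were not called. In control libraries only, Ptpn5 was not called in the cerebellar vGluT2 IP (−0.56, edgeR adjusted p = 0.184), and Gnal fell further (−1.12).

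**Figure D2:**
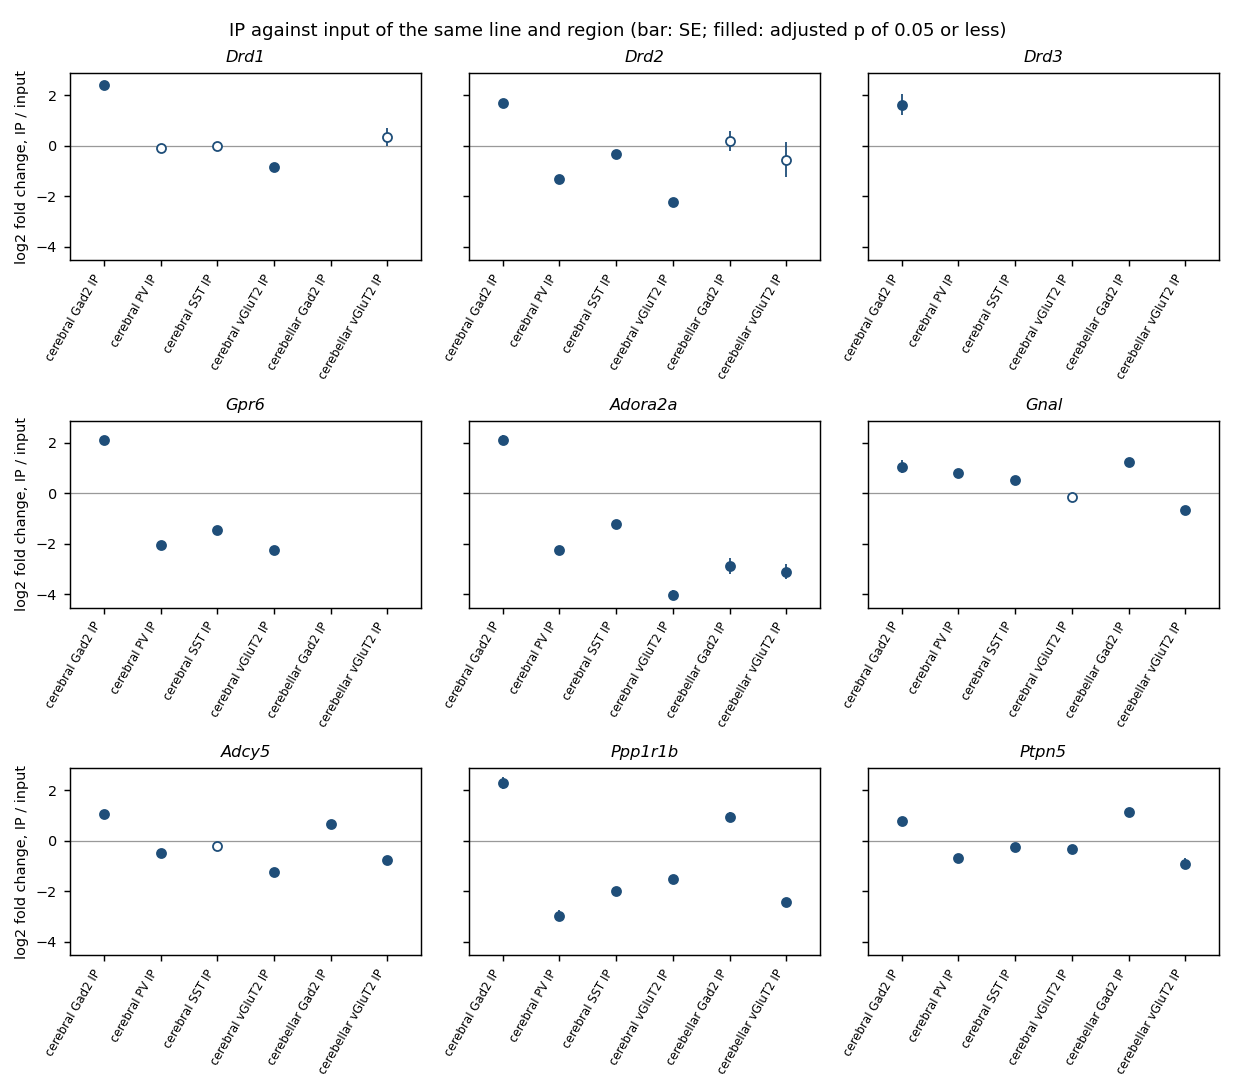
Log2 fold change of IP against input for the 9 genes in each line and brain region, with error bars of 1 SE. Drd1 lies highest in the cerebral Gad2 IP, at 2.39, and 7 of 8 genes tested were called lower in the cerebral vGluT2 IP.

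In the cerebral Gad2 IP, where these genes were most abundant, all 9 estimates were lower in HD than in control mice, and none passed the threshold. The lower levels took in the direct-pathway receptor Drd1, the indirect-pathway receptors Drd2, Gpr6 and Adora2a, the cyclase Adcy5 and DARPP-32, with HD means 21.2% to 33.1% below control means. STEP was the exception, with a mean 2.80% lower. Drd1 ran from 85.1 through a median of 92.4 to 108.9 CPM in 6 HD libraries, and from 122.2 through 140.1 to 176.6 in 6 controls. Adora2a ran from 153.1 through 197.8 to 236.3 CPM in HD and from 242.7 through 275.8 to 352.4 in controls. Gpr6 ran from 29.5 through 41.7 to 43.9 CPM in HD and from 44.6 through 52.4 to 57.4 in controls. For these 3 genes every HD library lay below every control library, a separation in this direction that 0.377% of the 14342 genes tested had. Ppp1r1b ran from 1094 through 1440 to 1915 CPM in HD and from 1808 through 2147 to 2688 in controls. Adcy5 ran from 353.3 through 476.3 to 527.0 CPM in HD and from 486.6 through 634.0 to 704.4 in controls. Drd2 ran from 95.8 through 119.1 to 140.4 CPM in HD and from 133.7 through 150.0 to 174.5 in controls. In these 3 the groups overlapped by a few libraries, with 4, 4 and 5 of 6 HD libraries below the lowest control.

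By edgeR's quasi-likelihood test, 0 of the 9 genes were called in the Gad2 IP, where 0.0279% of genes were, although 6 of the 9 and 1319 of 14342 genes (9.20%) had an unadjusted p of under 0.05. The log2 fold change was −0.58 ± 0.11 for Drd1 (edgeR adjusted p = 0.0907), −0.58 ± 0.16 for Ppp1r1b (0.379), −0.56 ± 0.14 for Adora2a (0.275), −0.43 ± 0.13 for Gpr6 (0.443), −0.41 ± 0.13 for Adcy5 (0.502) and −0.35 ± 0.12 for Drd2 (0.536), each with 6 of 6 HD libraries below the control median. How many of all genes had every HD library below the control median was not counted, here or in the comparisons that follow. Gnal (−0.53 ± 0.30), Drd3 (−0.45 ± 0.43) and Ptpn5 (−0.05 ± 0.09) had wider or smaller estimates, and their groups overlapped. The median of the 9 was −0.45 against −0.00 over all genes. Without HD replicate 4, Drd1 was called (−0.64, edgeR adjusted p = 0.0365).

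Of other fits to the same libraries, DESeq2 called 2 of the 9, against 0.523% of genes, namely Drd1 (adjusted p = 0.000342) and Adora2a (0.0329). Libraries differed in a GC index, the contrast between genes rich and poor in G and C, which averaged 0.570 in HD and 0.195 in control Gad2 IPs. With this index as a covariate edgeR called 3 of the 9, against 0.105% of genes. These were Adora2a (−0.79 ± 0.09, edgeR adjusted p = 0.00310), Ppp1r1b (−0.85 ± 0.11, 0.00868) and Gpr6 (−0.65 ± 0.09, 0.0143). The Gnal estimate went from −0.53 to −0.21 in that fit.

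Marker genes of cell types were set beside the members in the Gad2 IP. The 10 further markers of striatal projection neurons had a median of −0.35, with 0 called, and their summed level was 2806 ± 260 CPM in HD and 4154 ± 393 in control libraries. Penk, a neuropeptide precursor of the indirect pathway, was the most abundant of the 10, with 1018 CPM in HD and 1890.0 in controls, and none was at 0. The 3 GABAergic markers summed to 2411 ± 218 CPM in HD and 2694 ± 286 in controls, the 6 astrocyte markers to 278.3 ± 96.2 and 475.7 ± 222, and the 5 microglial markers to 117.0 ± 51.1 and 73.9 ± 25.8. The part of these cell type markers in the members' values was not tested. In libraries of this kind, fewer cells of a type and less RNA per cell cannot be told apart.

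**Figure D3:**
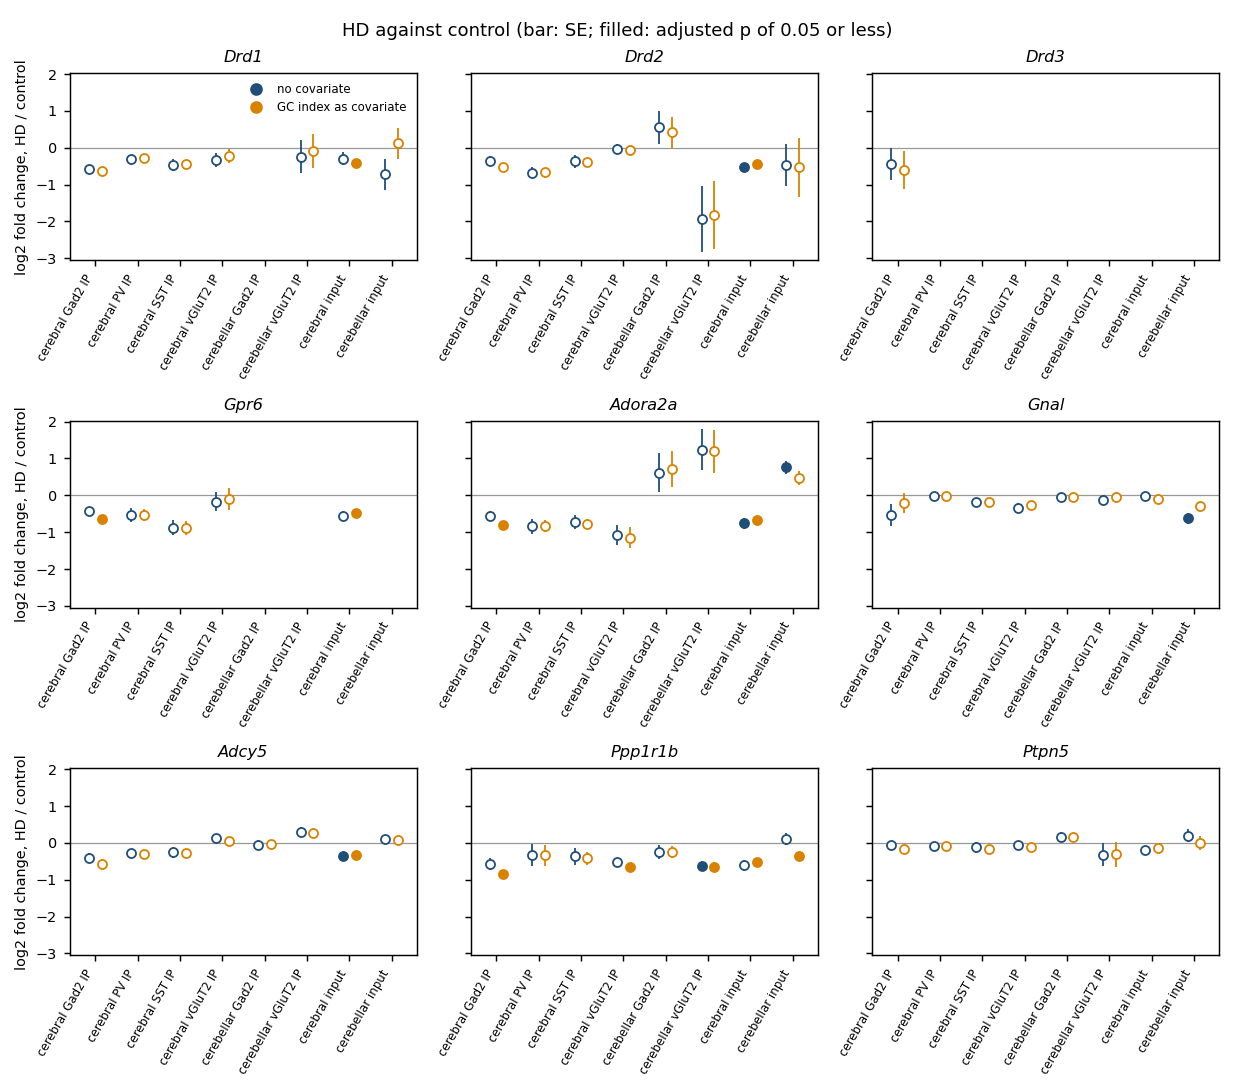
Log2 fold change of HD against control for the 9 genes in each IP and in pooled inputs, without (blue) and with (orange) the GC index, with bars of 1 SE and calls filled. Without the index, in the cerebral Gad2 IP all 9 estimates lie below 0, from −0.05 for Ptpn5 to −0.58 for Drd1.

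The SST IPs carried these genes at lower levels, and again every estimate was lower in HD. Of the controls, 3 of 5 SST IP and 2 of 4 SST input libraries came from mice whose identifiers start with Z, as those of no HD mouse do, and how these mice differ is not stated in the sources at hand. Gpr6 stood at 3.30, 2.49, 3.96 and 2.95 CPM in the 4 HD libraries and at 5.53, 6.66, 5.87, 5.00 and 5.58 in the 5 controls. Adora2a stood at 21.9, 16.2, 17.6 and 26.9 CPM in HD and at 41.4, 34.3, 35.3, 28.8 and 27.7 in controls. Gnal stood at 229.5, 233.6, 227.7 and 208.2 CPM in HD and at 241.1, 251.3, 243.7, 275.3 and 243.6 in controls. In these 3 genes all 4 HD libraries lay below all 5 controls, although for Adora2a the gap was under 1 CPM, and 0.34% of 14689 genes were separated in this direction. Drd1 stood at 20.3, 22.3, 16.4 and 14.6 CPM in HD and at 27.7, 28.0, 20.8, 22.5 and 26.1 in controls. Ppp1r1b stood at 71.9, 93.3, 71.5 and 130.8 CPM in HD and at 155.8, 111.9, 122.3, 118.9 and 74.4 in controls. In these 2 the groups overlapped, with 3 of 4 HD libraries below the lowest control for Drd1 and 2 of 4 for Ppp1r1b.

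By edgeR's quasi-likelihood test 0 of 8 genes tested and 0% of all genes were called in the SST IP, and 3 of the 8 and 216 genes (1.47%) had an unadjusted p of under 0.05. The log2 fold change was −0.88 ± 0.20 for Gpr6 (unadjusted p = 0.000707 over 14689 edgeR tests, adjusted p = 0.9999), −0.72 ± 0.18 for Adora2a (0.9999) and −0.47 ± 0.16 for Drd1 (0.9999), each with 4 of 4 HD libraries below the control median. The other estimates were −0.37 ± 0.17 for Drd2, −0.37 ± 0.23 for Ppp1r1b, −0.26 ± 0.15 for Adcy5, −0.19 ± 0.13 for Gnal and −0.13 ± 0.15 for Ptpn5. Of these, Drd2, Adcy5 and Gnal also had 4 of 4 HD libraries below the control median, with no count over all genes to set beside it. The median over the 8 was −0.37 and over all genes −0.01. Without the control mice with Z identifiers, 0 were called in the cerebral SST IP, with −0.92 for Gpr6, −0.86 for Adora2a, −0.58 for Drd1 and −0.12 for Gnal. DESeq2 called 0 of the 8, against 0.0136% of genes (2 genes), with an adjusted p of 0.0906 for Gpr6. The fit with the GC index called 0 of the 8 and 0% of genes. In that fit 6 of the 8 and 411 genes (2.8%) had an unadjusted p of under 0.05. The summed markers of striatal projection neurons were 707.5 ± 75.7 CPM in HD and 930.7 ± 68.3 in control SST IPs, with none at 0, a median of −0.32 and 0 of 10 called. The most abundant of them was Penk in HD (144.2 CPM) and Pdyn in controls (214.7 CPM). Summed oligodendrocyte markers were 3048 ± 490 and 3632 ± 752 CPM, and summed SST neuron markers 2008 ± 835 and 2076 ± 440. Their part in the members' values was not tested.

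In the PV IPs, the indirect-pathway receptors had the lowest HD estimates. Drd2 stood at 16.2, 16.0, 13.1, 19.6 and 20.2 CPM in the 5 HD libraries and ran from 21.5 through a median of 25.9 to 35.6 in 6 controls. Adora2a stood at 8.54, 12.1, 7.72, 14.8 and 11.6 CPM in HD and ran from 13.6 through 18.7 to 27.5 in controls. Drd2 was separated completely, as 0.306% of 14713 genes were in this direction, and the Adora2a groups overlapped by 1 HD library. The log2 fold change was −0.68 ± 0.15 for Drd2 (edgeR adjusted p = 0.298), −0.85 ± 0.21 for Adora2a (0.429), −0.53 ± 0.19 for Gpr6 (0.9998), −0.31 ± 0.12 for Drd1 (0.9998) and −0.29 ± 0.12 for Adcy5 (0.9998), each with 5 of 5 HD libraries below the control median. Ppp1r1b (−0.34 ± 0.30), Ptpn5 (−0.09 ± 0.10) and Gnal (−0.02 ± 0.07) were not separated by genotype. For Ppp1r1b, 3 of 5 HD libraries lay below the lowest control. HD replicate 3 lay above the highest, at 106.9 CPM, where the nearest other HD library was at 47.57. For Gnal, 2 HD libraries lay below and 3 above the control range, and its CPM means (281.8 in HD and 280.2 in controls) were opposite to the fitted sign. By edgeR's quasi-likelihood test 0 of 8 were called, against 0.0408% of genes, and 5 of 8 and 619 genes (4.21%) had an unadjusted p of under 0.05. DESeq2 called 2 of 8, against 0.285% of genes, Drd2 (adjusted p = 0.00715) and Adora2a (0.0275), and the fit with the GC index called 0 of 8, against 0.116%. Summed markers of striatal projection neurons were 387.3 ± 66.0 CPM in HD and 488.9 ± 41.6 in controls, with a median of −0.38 and 0 of 10 called, and their part was not tested.

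In the vGluT2 IPs, 7 of 8 estimates were below 0 in HD, and none passed the threshold. Ppp1r1b ran from 99.6 through 110.8 to 125.0 CPM in 6 HD libraries and from 134.7 through 162.6 to 212.7 in 6 controls. Adora2a ran from 1.86 through 2.19 to 4.13 CPM in HD and from 3.64 through 5.28 to 8.03 in controls. Ppp1r1b was separated completely, as 0.439% of 14354 genes were in this direction, and 5 of 6 HD libraries lay below the lowest control for Adora2a. The log2 fold change was −0.53 ± 0.13 for Ppp1r1b (edgeR adjusted p = 0.574), −1.08 ± 0.28 for Adora2a (0.627) and −0.35 ± 0.14 for Gnal (0.650), each with 6 of 6 HD libraries below the control median. Drd1 (−0.33 ± 0.18), Gpr6 (−0.17 ± 0.26), Ptpn5 (−0.05 ± 0.09), Drd2 (−0.02 ± 0.12) and Adcy5 (0.12 ± 0.11) followed. Of these, Drd1 and Drd2 also had 6 of 6 HD libraries below the control median, again with no count over all genes. By edgeR's quasi-likelihood test 0 of 8 and 0% of genes were called, and 3 of 8 and 1092 genes (7.61%) had an unadjusted p of under 0.05. DESeq2 called 1 of 8, Ppp1r1b (adjusted p = 0.0319), against 0.174% of genes. The fit with the GC index, which averaged 0.378 in HD and 0.122 in controls, also called 1 of 8, Ppp1r1b (−0.65 ± 0.07, edgeR adjusted p = 0.00740), against 0.0348%. Summed markers of striatal projection neurons were 366.9 ± 61.4 CPM in HD and 464.2 ± 59.1 in controls, with a median of −0.21 and 0 of 10 called, and their part was not tested.

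Whether the HD effect in the Gad2 IP differed from that in other libraries was tested as an interaction, and edgeR's quasi-likelihood test called no member. Against the PV IP 0 of 9 genes and 0% of 14626 genes were called, with an unadjusted p of under 0.05 for 0 of 9 and 446 genes. Against the SST IP 0 of 9 and 0% of 14566 were called, with 1 of 9 and 226 genes at that unadjusted p. Against the vGluT2 IP 0 of 9 and 0% of 14477 were called, with 2 of 9 and 218 genes. Against the Gad2 input 0 of 9 and 0% of 14723 were called, with 0 of 9 and 45 genes. All 6 Gad2 inputs came from mice that also gave a Gad2 IP, and with mouse as a block on these mice 0 of 9 and 0 genes were called in cerebral Gad2 IP minus cerebral Gad2 input, with −0.05 for Drd1, −0.11 for Adora2a and −0.19 for Ppp1r1b. DESeq2 called 1, 1, 1 and 0 genes in the 4 tests, none of them a member. The difference in log2 fold change for Drd1 was −0.24 ± 0.16 against PV, −0.12 ± 0.18 against SST, −0.24 ± 0.20 against vGluT2 and −0.11 ± 0.27 against input. For Adora2a it was 0.32 ± 0.27, 0.15 ± 0.23, 0.53 ± 0.28 and 0.09 ± 0.36 in that order, and for Ppp1r1b −0.20 ± 0.36, −0.23 ± 0.29, −0.04 ± 0.21 and −0.03 ± 0.41. The unadjusted p was under 0.05 for Gpr6 against SST (0.43 ± 0.20) and for Adcy5 (−0.52 ± 0.16) and Drd2 (−0.32 ± 0.15) against vGluT2. With SEs this wide, the tests do not show that the effects were equal.

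**Figure D4:**
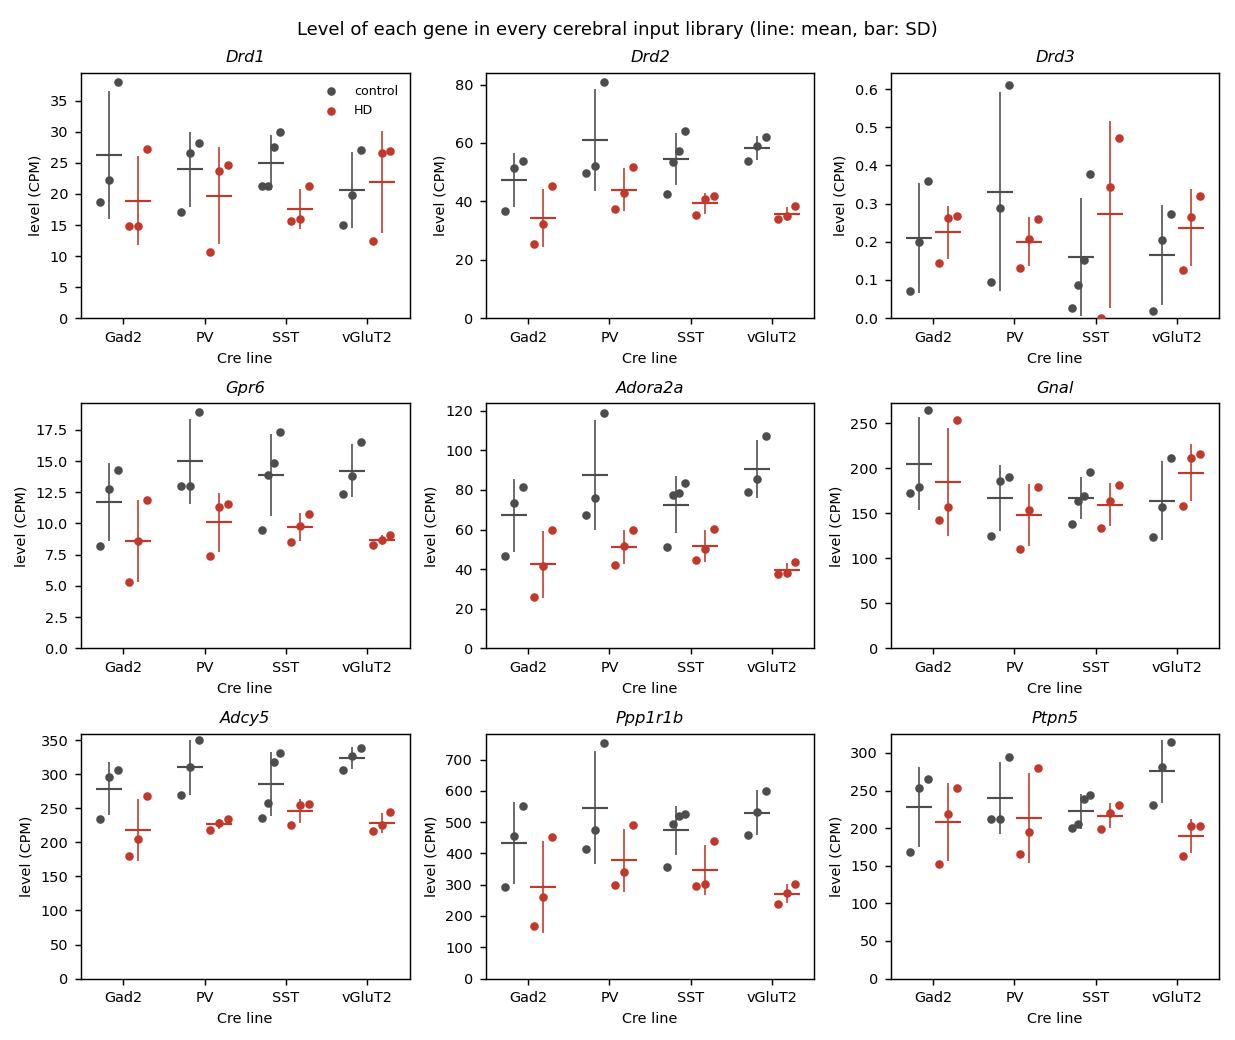
CPM of the 9 genes in each cerebral input library, by line and genotype. Points are libraries, and for Adora2a the 12 HD libraries lie between 26.2 and 60.4 CPM and the 13 controls between 46.5 and 119.0.

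Pooling the cerebral inputs of the 4 lines, with line as a term, gave the largest groups, 12 HD and 13 control libraries of total RNA, many from mice that also gave IP libraries. Adora2a and Drd2, receptors of the indirect pathway, and Adcy5, the cyclase on which they act, fell in HD. Adora2a ran from 26.2 through a median of 44.0 to 60.4 CPM in HD and from 46.5 through 78.5 to 119.0 in controls. Drd2 ran from 25.4 through 37.8 to 51.9 CPM in HD and from 36.7 through 53.8 to 81.0 in controls. Adcy5 ran from 180.6 through 226.6 to 268.8 CPM in HD and from 233.9 through 306.7 to 350.6 in controls. All 12 HD libraries lay below the control median in each of these 3 genes, and 7, 5 and 8 of them lay below the lowest control. Neither was counted over all genes. Adora2a fell by 0.76 ± 0.14 (edgeR adjusted p = 0.00930), Drd2 by 0.52 ± 0.11 (0.0201) and Adcy5 by 0.37 ± 0.08 (0.0175). These were 3 of the 8 genes tested, against 0.652% of 14880 genes (27 higher, 70 lower), and 5 of 8 and 1055 genes (7.09%) had an unadjusted p of under 0.05.

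Gpr6 (−0.55 ± 0.13, edgeR adjusted p = 0.0547) and Ppp1r1b (−0.61 ± 0.16, 0.0771) were also below the control median in 12 of 12 HD cerebral inputs, and missed the threshold. Gpr6 ran from 5.29 through 8.88 to 11.9 CPM in HD and from 8.23 through 13.8 to 18.9 in controls, and Ppp1r1b from 166.8 through 300.3 to 492.3 and from 291.3 through 494.7 to 752.6. In both the groups overlapped, with 2 and 4 HD libraries below the lowest control. Drd1 (−0.29 ± 0.17, edgeR adjusted p = 0.856), Ptpn5 (−0.20 ± 0.11, 0.840) and Gnal (−0.03 ± 0.11, 0.983) were lower in 7, 10 and 7 of 12. The median over the 8 genes was −0.44, against 0.03 over all genes. Single libraries moved the 2 near-misses past the threshold. Gpr6 was called without control Gad2 input replicate 1 (−0.60, edgeR adjusted p = 0.0245), control SST input replicate 4 (−0.59, 0.0270), HD Gad2 input replicate 3 (−0.62, 0.0150) or HD PV input replicate 1 (−0.58, 0.0454). Ppp1r1b was called without control Gad2 input replicate 1 (−0.66, edgeR adjusted p = 0.0389), HD Gad2 input replicate 3 (−0.71, 0.0157), HD PV input replicate 1 (−0.67, 0.0375) or HD SST input replicate 1 (−0.68, 0.0489).

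DESeq2 called 5 of 8 in the cerebral inputs, against 1.43% of genes, adding Gpr6 (adjusted p = 0.00625) and Ppp1r1b (0.0125). With the GC index edgeR called 6 of 8, against 3.27%, namely Adora2a (−0.66 ± 0.07, edgeR adjusted p = 1.52e-06), Ppp1r1b (−0.52 ± 0.06, 5.65e-06), Gpr6 (−0.47 ± 0.08, 0.000483), Drd2 (−0.45 ± 0.06, 1.40e-05), Drd1 (−0.41 ± 0.07, 0.000764) and Adcy5 (−0.33 ± 0.05, 0.000311). Within single lines of 3 HD and 3 or 4 control inputs, edgeR's quasi-likelihood test without pairing called 0 genes, and Adora2a differed by −0.65 in the Gad2 line, −0.75 in PV, −0.48 in SST and −1.20 in vGluT2. In the Gad2 line, the only set in which same-numbered HD and control inputs deviated together (r from 0.399 to 0.912), a fit with the number as a block called 14 genes, among them Adora2a (−0.69) as the only member. This fit was added after those correlations were seen. Adora2a levels there were 26.2, 41.4 and 59.7 CPM in HD, beside 46.5, 73.3 and 81.4 in controls of the same number. In the vGluT2 line Adora2a stood at 37.7, 37.9 and 43.6 CPM in HD and at 107.1, 85.6 and 78.7 in controls. The GC index of these vGluT2 inputs averaged 0.751 in HD and 1.41 in controls. Without the SST line Drd2 was not called (−0.55, edgeR adjusted p = 0.153). Summed markers of striatal projection neurons were lower in HD in every line, at 622.9 ± 45.7 against 836.0 ± 20.4 CPM in Gad2, 701.9 ± 30.9 against 932.5 ± 70.7 in PV, 670.1 ± 16.7 against 922.7 ± 72.3 in SST and 658.2 ± 90.3 against 894.6 ± 60.2 in vGluT2 inputs. Of these 10 markers Penk and Rgs9 fell, and the median was −0.15. The part of these markers in the members' values was not tested.

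In the cerebellar Gad2 IPs the intracellular genes were well measured and did not differ between genotypes beyond their spread. Ppp1r1b ran from 291.9 through 352.9 to 490.1 CPM in HD and from 248.0 through 427.6 to 556.8 in controls. Gnal ran from 302.6 through 359.2 to 401.6 CPM in HD and from 287.3 through 352.3 to 394.8 in controls. The groups overlapped for all members, and in 0 of 6 genes tested was every HD library below every control, as in 0.106% of 14098 genes. Log2 fold changes were −0.25 ± 0.20 for Ppp1r1b, −0.06 ± 0.13 for Adcy5, −0.04 ± 0.09 for Gnal, 0.17 ± 0.14 for Ptpn5, 0.55 ± 0.44 for Drd2 and 0.61 ± 0.53 for Adora2a, the last 2 at means of 1.41 CPM or less. The signs for Gnal and Adcy5 are opposite to those of the CPM means (357.8 in HD and 346.7 in controls, and 105.7 and 104). CPM was normalised over all libraries and the fit over the libraries compared. By edgeR's quasi-likelihood test 0 of 6 were called, against 0.0142% of genes, and 0 of 6 and 340 genes (2.41%) had an unadjusted p of under 0.05. DESeq2 called 0 of 6, against 0.156%, and the fit with the GC index 0 of 6, against 0.0213%.

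The cerebellar vGluT2 IPs carried granule cell markers, and Ppp1r1b was lower in them than in the input. The DARPP-32 message counted there was lower in HD, and which cells it came from was not tested. The paper places Ppp1r1b in cerebellar Purkinje neurons, and its in situ staining of the cerebellum did not change in HD. Ppp1r1b ran from 24.0 through 31.7 to 40.8 CPM in 6 HD libraries and stood at 59, 47.8, 55.0, 49.7 and 44.7 in the 5 controls. Every HD library lay below every control, as in 2.37% of 13487 genes in this direction. It fell by 0.62 ± 0.13 (edgeR adjusted p = 0.0214, 6 of 6 HD libraries below the control median), 1 of 7 genes tested, against 2.09% of genes called. An unadjusted p of under 0.05 was found for 4 of 7 and 2082 genes (15.4%). The call was lost without control replicate 3 (−0.59, edgeR adjusted p = 0.0645), a library whose Y-linked counts differed from its mouse's other library, or without HD replicate 1 (−0.59, 0.0559). The estimate was −0.57 without control replicate 1 and −0.64 without control replicate 4, the others with such a difference. DESeq2 (adjusted p = 0.000296) and the fit with the GC index (−0.65, edgeR adjusted p = 0.00948) called the same 1 of 7, against 4.93% and 4.33% of genes. Adcy5 (0.29 ± 0.13, edgeR adjusted p = 0.302), Adora2a (1.24 ± 0.55, 0.299) and Drd2 (−1.93 ± 0.89, 0.315) were not called, and the Drd2 estimate turned on a control library at 11.1 CPM among others at 0.610 to 1.35. Of 5 granule cell markers Cbln1 and Neurod1 fell, and the summed level was 4869 ± 1032 CPM in HD and 7342 ± 924 in controls, with Cbln1 most abundant (1580.0 and 2526 CPM). The GABAergic markers Gad1 (−0.19 ± 0.28), Gad2 (−0.22 ± 0.33) and Slc32a1 (0.06 ± 0.15) were not called. Nor were the Purkinje cell markers Pcp2 (0.34 ± 0.34), Calb1 (0.045 ± 0.31), Car8 (−0.40 ± 0.28), Foxp2 (−1.66 ± 0.98) and Ppp1r17 (0.14 ± 0.27). The part of these cell type markers in the value of Ppp1r1b was not tested.

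In the cerebellar inputs, Adora2a was called higher and Gnal lower in HD, in a comparison where a large share of all genes differed. The share of members called was close to that of all genes, and both calls were lost with the GC index. Adora2a ran from 2.32 through 3.52 to 4.72 CPM in 7 HD libraries and from 1.81 through 1.89 to 2.61 in 7 controls. Gnal ran from 86.4 through 95.9 to 171.8 CPM in HD and from 132.3 through 174.5 to 202.3 in controls. For each gene 6 of 7 HD libraries lay outside the control range. Adora2a rose by 0.76 ± 0.17 and Gnal fell by 0.63 ± 0.15 (edgeR adjusted p = 0.0268 for both), 2 of 7 genes tested, against 25.6% of 14477 genes (1824 higher, 1880 lower) and 44.7% with an unadjusted p of under 0.05. DESeq2 called the same 2, against 34.4% of genes. For Gnal, HD libraries of the vGluT2 line stood at 86.4, 92.1, 95.9 and 94.9 CPM and controls at 202.3, 174.5, 166.6 and 201.6. In the Gad2 line they stood at 115.4, 109.5 and 171.8 against 135.6, 182.1 and 132.3 CPM, and overlapped, but the difference between the lines was not tested. Taken alone, the vGluT2 line gave −0.99 for Gnal (edgeR adjusted p = 0.000140) and 7565 genes called, and the Gad2 line −0.17 for Gnal and 0 genes called by edgeR. The vGluT2 line alone also called Adora2a (0.82) and Ppp1r1b (0.39, edgeR adjusted p = 0.0237), so 3 members were among its 7565 genes called. Ppp1r1b stood at 212.6 to 281.7 CPM in HD and 171.6 to 199.4 in controls. How many of all genes were separated by genotype in these inputs was not counted.

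The GC index of the cerebellar vGluT2 inputs ran from 0.925 to 1.49 in HD and from −0.385 to 0.355 in controls, so it was separated by genotype. With the index as a covariate, when 131 genes in all were called, neither gene was called (Adora2a 0.48, edgeR adjusted p = 0.265, and Gnal −0.28, 0.213), and Ppp1r1b was (−0.35, 0.0413, against 0.10 ± 0.16 without it), 1 of 7 against 0.905% of genes. Both calls were also lost when any 1 of 9 libraries was left out, with edgeR adjusted p from 0.0501 to 0.0624. Those libraries were control Gad2 input replicate 2, control vGluT2 inputs 1, 2, 3 and 4, HD Gad2 input 2, and HD vGluT2 inputs 2, 3 and 4. Without them Adora2a ranged from 0.68 to 0.81 and Gnal from −0.58 to −0.63.

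The wider pathway was read from 7 lists, given as counts called and, in some comparisons, as the median beside that of all genes. The lists hold members too, such as Drd1 and Drd2 among the dopamine receptors, Gnal among the G protein subunits and Adcy5 among the cyclases. In the 4 cerebral IPs edgeR called 0 genes of any list between HD and control. In the Gad2 IP the medians were −0.35 for 5 dopamine receptors, −0.06 for 15 G protein subunits, −0.14 for 8 adenylyl cyclases, 0.01 for 10 protein kinase A subunits, inhibitors and anchors, −0.27 for 6 phosphodiesterases of striatal projection neurons, −0.05 for 16 partners of DARPP-32 and STEP, and −0.28 for 11 other receptors of these neurons coupled to Gs or Gi. That last list named 12 genes, of which 11 were matched. In the SST IP the medians were −0.37, −0.02, −0.22, −0.01, −0.14, −0.02 and −0.18 in the same order, against −0.01 over all genes. In the cerebral inputs, where 0.652% of all genes were called, the lists held 1 call each for dopamine receptors (Drd2, median −0.40) and cyclases (Adcy5, −0.14), both of them members counted above, and 0 for G proteins (0.08), kinase subunits (0.11), phosphodiesterases (−0.13), DARPP-32 and STEP partners (−0.01) and other receptors (−0.17), against 0.03 over all genes. The cerebellar IPs had 0 calls in all 7 lists, against 0.0142% of genes in Gad2 and 2.09% in vGluT2. In the cerebellar inputs, where 25.6% of all genes were called, the counts called were 6 of 15 G protein subunits (median 0.10), 1 of 9 cyclases (−0.02), 2 of 10 kinase A subunits and inhibitors (−0.22), 3 of 6 phosphodiesterases (−0.09), 4 of 16 DARPP-32 and STEP partners (−0.01), 2 of 9 other receptors (−0.09) and 0 of 4 dopamine receptors, against −0.00 over all genes. The 6 G protein subunits called there included Gnal, a member counted above. With the GC index, 0 genes of any list were called in the cerebellar inputs.

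Over the 12 control groups, mean log2 levels of the 9 genes were standardised and averaged into 1 profile. The genes that tracked it most closely were Rasgrp2 (Pearson r = 0.977), Htr1d (0.973), Sh3rf2 (0.970), Slc4a11 (0.969) and Kcna5 (0.960), from 12323 genes, where groups of a line share mice. The members' own r ran from 0.979 for Adcy5 and 0.964 for Gpr6 to 0.745 for Ppp1r1b and 0.605 for Gnal. Each member is itself part of the profile, so these values cannot be set against those of the other genes. In the cerebral inputs Slc4a11 fell by 1.72 ± 0.23 (edgeR adjusted p = 0.000200) and Sh3rf2 by 0.55 ± 0.10 (0.00440), and Rasgrp2 (−0.32 ± 0.12, 0.372) was called only with the GC index (−0.26, edgeR adjusted p = 0.00631). In the Gad2 IP the estimates were −1.98 ± 0.35 for Slc4a11 (edgeR adjusted p = 0.0850), −0.84 ± 0.24 for Sh3rf2 and −0.37 ± 0.15 for Rasgrp2, and 0 of these 3 were called. Htr1d (0.04 ± 0.16 in the Gad2 IP and −0.15 ± 0.14 in the cerebral inputs) and Kcna5 (−0.03 ± 0.14 and −0.19 ± 0.11) were called in neither.

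Promoters are shown for 4 members, as windows of 300 bases from 250 before to 50 after the RefSeq start on GRCm38.p6. Of the 9 genes 6 were matched to 8 windows, and Adora2a, Ppp1r1b and Gnal were not. Motifs were searched on both strands. The cyclic AMP response element TGACGTCA was in 1 window, that of Gpr6, and in 1.79% of 32851 promoters. Its half-site, TGACG or CGTCA, was in the same window alone, within the full element, and in 20.8% of promoters. The GC box, GGGCGG or CCGCCC, was in 5 of 8 windows and in 35.7% of promoters, and the TATA box, TATAAA or TTTATA, in 0 of 8 and in 13.6%. Capitals mark the response element in Gpr6 (chr10:41072241-41072540, minus strand) and GC boxes in Drd1 (chr13:54055609-54055908, minus strand), Drd2 (chr9:49340153-49340452, plus strand) and Adcy5 (chr16:35154614-35154913, plus strand).
Gpr6: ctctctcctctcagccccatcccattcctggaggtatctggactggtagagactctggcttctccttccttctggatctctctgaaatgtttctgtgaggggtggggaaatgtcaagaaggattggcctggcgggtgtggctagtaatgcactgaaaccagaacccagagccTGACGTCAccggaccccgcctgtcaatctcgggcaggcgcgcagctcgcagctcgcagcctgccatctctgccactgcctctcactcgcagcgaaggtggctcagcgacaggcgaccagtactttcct
Drd1: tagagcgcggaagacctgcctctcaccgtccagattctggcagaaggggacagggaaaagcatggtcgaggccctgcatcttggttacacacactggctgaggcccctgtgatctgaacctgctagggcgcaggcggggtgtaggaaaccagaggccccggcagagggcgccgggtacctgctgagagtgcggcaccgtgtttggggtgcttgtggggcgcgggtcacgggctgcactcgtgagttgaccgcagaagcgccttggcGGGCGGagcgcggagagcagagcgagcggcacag
Drd2: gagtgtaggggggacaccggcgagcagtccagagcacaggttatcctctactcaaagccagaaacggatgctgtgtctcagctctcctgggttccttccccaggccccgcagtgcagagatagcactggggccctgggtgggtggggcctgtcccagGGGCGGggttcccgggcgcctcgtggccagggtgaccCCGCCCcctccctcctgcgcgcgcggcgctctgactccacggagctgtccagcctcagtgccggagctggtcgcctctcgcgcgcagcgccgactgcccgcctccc
Adcy5: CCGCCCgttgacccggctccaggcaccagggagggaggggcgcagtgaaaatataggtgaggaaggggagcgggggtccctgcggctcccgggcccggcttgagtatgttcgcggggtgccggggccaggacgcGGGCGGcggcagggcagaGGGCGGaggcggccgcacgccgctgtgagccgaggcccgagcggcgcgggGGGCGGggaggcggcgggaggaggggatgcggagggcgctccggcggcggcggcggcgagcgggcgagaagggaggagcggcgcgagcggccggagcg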

How the data were processed

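Counts were taken from the table the authors deposited, which holds estimated counts per gene and library from Salmon after STAR alignment to GRCm38.p6, according to the submitters' processing notes. The supplement names the nf-core/rnaseq pipeline, release 3.0, and versions of STAR and Salmon are not given; 8.57% of values were not whole and were rounded. Spike-ins, at most 4.45% of a library, were left out. Genes with a mean count above 10 over the libraries compared were fitted in edgeR 4.0.16 (limma 3.58.1, R 4.3.3) with trimmed mean normalisation, and again in DESeq2 1.42.0. Input fits carried a term for line. Tables were made with pandas 2.3.3 and numpy 2.4.6 in Python 3.11.15, and figures with matplotlib 3.10.9. The fits were tested on simulated data. The GC index contrasts 2786 genes rich in G and C with 2786 poor ones. The genes named were the 9 members, genes past the threshold in 7 pathway lists, genes of 13 cell type marker lists (not all reported by name here), and the 5 genes most like the members over 12 control groups. Members and lists were chosen with earlier results of these data known. Alternatives covered the tool, normalisation, filter, sex, GC index, pairing and single libraries.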

Additional observations from a re-analysis of the deposited data

Results flagged for a closer look

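Single libraries far from the rest of their group were marked by Dixon's test at the 95% level, and chance marks about 1 group in 20. Of 102 gene and group pairs tested, 6 were marked. Drd2 stood at 11.1 CPM in control cerebellar vGluT2 IP replicate 5, where the nearest other was 1.345. The same gene stood at 6.817 CPM in control cerebellar vGluT2 input replicate 4, with the nearest other at 0.9554. Adcy5 stood at 49.91 CPM in control cerebellar vGluT2 IP replicate 5, next to 34.91. Gnal was low in control cerebral Gad2 IP replicate 6, at 274.4 CPM against 475.6 in the nearest other. Ppp1r1b was high in HD cerebral PV IP replicate 3, at 106.9 CPM against 47.57. Ptpn5 was high in HD cerebral vGluT2 IP replicate 1, at 206.4 CPM against 177.8. No member's difference in HD effect between the cerebral Gad2 IP and another cerebral IP or the Gad2 input passed its test.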

How the results depend on the processing

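Of 2916 values of members under 133 alternatives and 231 fits with a library left out, 2684 kept their direction and their side of the threshold, 61 lost and 54 gained a call in the same direction, 5 changed sign and were called in 1 of the 2 fits, and the rest changed sign without being called in either fit. All 5 did so with the GC index as a covariate: Ppp1r1b in cerebellar inputs (0.10 to −0.35), Drd1 (0.01 to −0.42), Drd2 (−0.31 to 0.13) and Ptpn5 (−0.25 to 0.14) in SST IP against input, and Ptpn5 in cerebral vGluT2 IP against input (−0.34 to 0.0089). The GC index, the Y-linked covariate and the replicate block with the GC index were added after the data were seen, and the cause was not tested. So were the replicate block in the Gad2 inputs alone and the mouse block in the interaction of Gad2 IP and Gad2 input.

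Counts of members called between HD and control moved as follows. In the Gad2 IP (0) there were 2 with DESeq2, 4 with Xist and 3 with Y-linked genes as a covariate, 3 with the GC index, 5 with the replicate block and GC index, and 0 to 1 with a library left out. In the PV IP (0) there were 2 with DESeq2. In the cerebral vGluT2 IP (0) there were 1 with DESeq2, 1 with the GC index and 3 with block and GC index. In the cerebellar vGluT2 IP (1) there were 0 with the block (Ppp1r1b −0.58, edgeR adjusted p = 0.122), 2 with block and GC index, and 0 to 1 with a library left out. In the cerebral inputs (3) there were 5 with DESeq2, 4 with its size factors or with no filter (adding Gpr6), 2 without the SST line, 6 with the GC index, 5 with the block, 6 with both, 0 in each line alone, where fewer libraries were compared, 1 in the Gad2 line with the block, and 3 to 5 with a library left out. In the cerebellar inputs (2) there were 1 with the GC index, 0 with the block, 0 with both, 0 in the Gad2 line alone, 3 in the vGluT2 line alone and 0 to 2 with a library left out. The SST IP and cerebellar Gad2 IP kept 0 throughout. Replicate numbers were no pairing in general, since only 1 of 12 sets of libraries, the cerebral Gad2 inputs, had every same-numbered HD and control pair correlated above 0.1.

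Counts over all genes differed more than 1.5 times as follows. In the Gad2 IP (4) they were 75 with DESeq2, 25 with Xist, 14 with Y-linked genes, 15 with the GC index, 9 with the block and 29 with both. In the PV IP (6) they were 42 with DESeq2, 17 with the GC index and 0 with either sex covariate or block. In the SST IP (0) they were 2 with DESeq2 and 1 with either block, and in the cerebral vGluT2 IP (0) 25 with DESeq2, 5 with the GC index, 653 with block and GC index, and 1 with no filter or without the re-sequenced library. In the cerebellar Gad2 IP (2) they were 22 with DESeq2, 1 with its size factors, filterByExpr, or block and GC index, and 0 with a sex covariate, the block or without the re-sequenced library. In the cerebellar vGluT2 IP (282) they were 665 with DESeq2, 584 with the GC index, 109 with the block and 1180 with both. In cerebral inputs (97) they were 213 with DESeq2, 486 with the GC index, 478 with both, 32 without the SST line, 0 in single lines and 14 in the Gad2 line with the block. In cerebellar inputs (3704) they were 131 with the GC index, 9 with the block, 14 with both, 0 in the Gad2 line, and 7565 in the vGluT2 line. With a library left out they ran from 3 to 20 in the Gad2 IP, 0 to 4 in the PV IP, 0 to 1 in the SST IP and in the cerebral vGluT2 IP, 0 to 3 in the cerebellar Gad2 IP, 154 to 275 in the cerebellar vGluT2 IP, 67 to 159 in cerebral inputs and 92 to 7456 in cerebellar inputs. The interactions of the Gad2 IP with the PV, SST and vGluT2 IPs (0) gave 1 each with DESeq2, and the PV one 0 to 1 with a library left out. The cause was not tested, and single lines also held fewer libraries. Of IP comparisons, Gad2 gave 10180 against all cerebral inputs (6770) and SST 5583 with the GC index (9455).

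IP against input also moved with the GC index in the PV IP, where Drd1 gained a call (−0.68) and Adcy5 (−0.21) and Ptpn5 (−0.18) lost theirs, and in the vGluT2 IP, where Gnal gained one (−0.48). In control libraries only, Drd2 (−0.36) and Ptpn5 (−0.22) lost theirs in the SST IP, where 4 members were called in place of 6, and Ptpn5 (−0.56) in the cerebellar vGluT2 IP, with 4 in place of 5. The SST IP had 7 with DESeq2, mouse as a block or all cerebral inputs. With mouse as a block the interaction of the Gad2 IP with the Gad2 input kept 0 members and 0 genes. On library totals alone, Drd2 (−0.19) and Ptpn5 (−0.13) lost theirs in the SST IP. Of 216 gene and group means, 211 moved by less than 1 SD on library totals. Depth limits Drd3 everywhere, Drd1 and Gpr6 in the cerebellum and Adora2a in the cerebellar IPs, all with means below 1 CPM. It also limits Drd2 in the control cerebellar Gad2 IP, the HD cerebellar vGluT2 IP and the HD cerebellar Gad2 input.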
